A study of Mus musculus with 6 samples.

Results

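The granule genes of neutrophils were examined in RNA sequencing of mouse bone marrow-derived eosinophils that had been treated with extracellular vesicles (EVs) from activated TH2 cells. The list had 10 genes, chosen by name with earlier results of these data known. It holds the primary granule genes Mpo, Elane, Prtn3 and Ctsg and the secondary granule genes Ltf, Camp, Ngp and Lcn2. The other members are S100a8 and S100a9, which encode the subunits of calprotectin. Rows for 9 of these 10 genes were found among the 16254 genes of the count table, and Elane was not analysed here. All cells came from the marrow of C57BL/6 mice aged 6 to 12 weeks, which was cultured with FLT3 ligand and stem cell factor and then with IL-5 and used on day 12. Of the 6 cultures, 3 received TH2 cell EVs and 3 received media without cells that had been carried through the same EV isolation, called sham here. RNA was collected after 24 h. The labels call the 3 samples of each group biological replicates, without saying whether they came from separate mice, so the tests measure the spread between these cultures. The cultures are a model of eosinophils made in vitro, no cell sort before RNA isolation is described, and the labels do not give the purity of each culture.

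The deposited values are counts per gene estimated by Salmon, which summed to between 23697573 and 37874393 per library. They were scaled between libraries by the TMM method and are given as CPM, the count of a gene scaled to one fixed total per library. Prg2, which encodes the major basic protein of eosinophil granules, had 20568 ± 2578 CPM (SD, n = 3) in sham- and 24081 ± 1057 CPM (SD, n = 3) in EV-treated cultures. The T cell gene Cd4 was at or under 1.11 CPM in every library. The spread between cultures was larger among sham- than among EV-treated libraries, with a chi-square per gene of 13.5 to 31.8 and of 8.37 to 9.93 over the pairs of libraries, where sampling noise alone gives about 1.

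Neutrophils pack their antimicrobial proteins into granules that form in sequence as the cell matures. Primary (azurophil) granules form first, at the promyelocyte stage, and hold myeloperoxidase and serine proteases. Secondary (specific) granules form later and hold lactoferrin, cathelicidin and lipocalin 2, while calprotectin is mainly a cytosolic protein. Transcription factors of the C/EBP family and PU.1 control many of these genes during granulocyte development, and eosinophils and neutrophils share early progenitors. Eosinophils carry a different set of granule proteins, among them the peroxidase that is the counterpart of myeloperoxidase.

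The genes lie in a few places in the mouse genome. In GENCODE vM21 on GRCm38, the assembly that the submitters' notes name as mm10, S100a8 lies at chr3:90668978-90670035 on the plus strand and S100a9 at chr3:90692632-90695721 on the minus strand, 22.6 kb apart. Camp (chr9:109847379-109849617, minus strand), Ngp (chr9:110419747-110423012, plus strand) and Ltf (chr9:111019271-111042767, plus strand) lie on chromosome 9, with 570.1 kb between Camp and Ngp and 596 kb between Ngp and Ltf. Lcn2 is at chr2:32384633-32388252 (minus strand), Mpo at chr11:87793581-87804413 (plus strand), Prtn3 at chr10:79874476-79883174 (plus strand) and Ctsg at chr14:56099881-56102574 (minus strand). No 31-base word of the transcripts of 8 of the 9 genes occurs in the transcripts of another gene, and for Mpo 0.464% do.

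The 250 bases before the RefSeq start of all 9 genes were searched on both strands for 4 short motifs, which were chosen after expression values had been seen. The C/EBP motif TTGCNNAA occurs in 4 of the 9 windows (S100a9, Ngp, Ltf and Lcn2) and in 9.56% of 32851 such windows of the genome. The PU.1 motif GAGGAAG occurs in 5 of the 9 (S100a8, Lcn2 and all 3 primary granule genes) and in 10.6% of all windows. The STAT motif TTCNNNGAA occurs in 1 (Ctsg, against 7.02% of all windows), and the GATA motif AGATAA in 2 (S100a9 and Ltf, against 9.99%). None of these motifs was seen in the window of Camp. A match is a run of letters and was not tested as a binding site, and the 9 windows were not compared with the rest by a test. The windows shown are those of S100a9 and Ltf, which fell with EVs, and of Ngp, which did not pass the test. Those of Prtn3 and Ctsg are shown as primary granule genes. The windows of S100a8 and Camp, which also fell, and of Mpo are not shown. That of S100a8 has a PU.1 match and no C/EBP match, and that of Camp has neither. A link between the letters and the changes with EVs was not tested. Each sequence runs 5′ to 3′ on the strand of its gene, stops short of the annotated exon at that start and has matches to the C/EBP and PU.1 motifs in capitals. The STAT motif was capitalised at first in place of PU.1, and this was changed after the matches had been seen. The stretch of Prtn3 lies inside the gene as GENCODE draws it, downstream of an annotated exon further upstream. A further C/EBP match of Ngp and both the C/EBP and the PU.1 match of Lcn2 lie in annotated exons of these genes and are not shown.
S100a9, chr3:90695722-90695971, minus strand: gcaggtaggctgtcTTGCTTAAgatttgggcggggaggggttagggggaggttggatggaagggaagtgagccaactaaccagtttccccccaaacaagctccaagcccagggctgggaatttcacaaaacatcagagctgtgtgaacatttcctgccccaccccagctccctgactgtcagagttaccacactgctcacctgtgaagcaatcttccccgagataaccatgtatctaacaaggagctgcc
Ltf, chr9:111019042-111019270, plus strand: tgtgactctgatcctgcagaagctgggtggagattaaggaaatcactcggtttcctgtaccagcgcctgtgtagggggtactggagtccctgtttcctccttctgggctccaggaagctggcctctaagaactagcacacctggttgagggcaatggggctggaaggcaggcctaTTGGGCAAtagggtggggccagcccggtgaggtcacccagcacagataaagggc
Ngp, chr9:110419558-110419746, plus strand: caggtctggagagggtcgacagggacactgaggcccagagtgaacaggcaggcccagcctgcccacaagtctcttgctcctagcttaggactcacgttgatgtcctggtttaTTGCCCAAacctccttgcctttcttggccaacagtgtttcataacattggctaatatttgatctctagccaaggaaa
Prtn3, chr10:79879417-79879613, plus strand: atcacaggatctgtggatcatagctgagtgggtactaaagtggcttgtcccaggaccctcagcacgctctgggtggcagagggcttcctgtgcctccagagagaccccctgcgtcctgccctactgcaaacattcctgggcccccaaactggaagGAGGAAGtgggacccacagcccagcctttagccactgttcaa
Ctsg, chr14:56102575-56102824, minus strand: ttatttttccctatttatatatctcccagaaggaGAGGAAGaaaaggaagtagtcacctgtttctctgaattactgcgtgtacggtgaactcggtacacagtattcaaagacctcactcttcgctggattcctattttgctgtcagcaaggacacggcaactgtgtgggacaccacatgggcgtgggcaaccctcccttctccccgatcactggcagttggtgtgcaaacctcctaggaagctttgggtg

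Of the 9 genes, 5 were lower in EV- than in sham-treated eosinophils, and all 5 belonged to calprotectin or the secondary granules. S100a8, S100a9, Ltf, Camp and Lcn2 fell to between 0.248 and 0.537 of their sham level. Ngp, a secondary granule gene with the highest level of the 9, had nearly equal means in both groups. The 3 primary granule genes Mpo, Prtn3 and Ctsg had higher means with EVs but did not pass the test. Calls were made with the quasi-likelihood test of edgeR where the p adjusted by Benjamini-Hochberg over all 13498 genes was under 0.01. At this threshold 11.6% of all genes tested were lower and 12.1% were higher, and 3.1% were higher with a log2 fold change of 1 or more. The EV-treated libraries all lay under the sham-treated ones for these same 5 genes, as they did for 24.7% of all genes tested. All 9 genes passed the filter on low counts. Their median log2 fold change was -0.90, against -0.014 over all genes tested, and 4 of the 9 were lower with a log2 fold change of -1 or less, as were 6.35% of all genes. None of the 9 genes was called higher by edgeR, DESeq2 or limma. At an unadjusted p under 0.05, 1 of them was higher by edgeR, 1 by DESeq2 and 2 by limma. In bulk RNA, fewer cells of a type and less RNA per cell cannot be told apart. The paper reports that EVs from activated T cells raised eosinophil survival and lowered apoptosis in culture, compared with untreated eosinophils. Survival in the sequenced cultures is not given in the sources used here. Its part in the differences between the groups was not tested, and the sham level is not taken as that of healthy eosinophils.

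**Figure D1:**
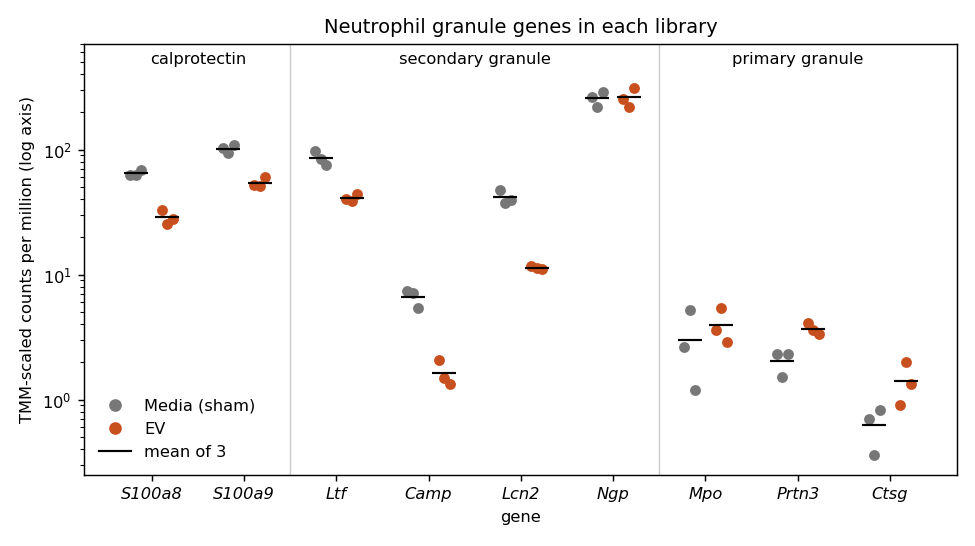
TMM-scaled CPM (log axis) of the 9 genes in each of the 3 Media (sham, grey) and 3 EV (orange) libraries, with the mean of each group as a bar. The EV libraries lie under the sham libraries for S100a8, S100a9, Ltf, Camp and Lcn2, overlap with them for Ngp and Mpo, and lie over them for Prtn3 and Ctsg.

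S100a8 and S100a9 encode calcium-binding proteins that pair as calprotectin, which withholds zinc and manganese from microbes and is abundant in neutrophils and monocytes. S100a8 was at 63.1, 62.8 and 68.2 CPM in sham replicates 1 to 3 and at 32.7, 25.5 and 27.6 CPM in EV replicates 1 to 3. The groups did not overlap, and every EV-treated library was under every sham-treated one. Its log2 fold change was -1.18 (standard error 0.0986, edgeR adjusted p = 1.07e-05). S100a9 was at 103, 93.8 and 108 CPM in the sham and at 51.8, 51.2 and 60.5 CPM in the EV replicates, again without overlap. Its log2 fold change was -0.90 (standard error 0.0858, edgeR adjusted p = 2.61e-05). Per kilobase of transcript, S100a8 had 0.656, 0.715 and 0.675 times the level of S100a9 in the sham replicates and 0.674, 0.533 and 0.488 times in the EV replicates, so that the ratio of the subunits overlapped between groups.

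Among the secondary granule genes, Lcn2 encodes lipocalin 2, which binds bacterial iron carriers. It was at 47.1, 37.3 and 39.8 CPM in the sham and at 11.6, 11.3 and 11.1 CPM in the EV replicates. The EV-treated cultures were close to each other, and all were far under the lowest sham-treated culture. The log2 fold change was -1.87 (95% interval -2.11 to -1.62, edgeR adjusted p = 1.13e-06), which was the smallest adjusted p of the 9 genes.

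Camp encodes the precursor of the antimicrobial peptide CRAMP, the mouse cathelicidin. It had 252, 178 and 136 counts in the sham and 64, 54 and 47 in the EV replicates, or 6.60 ± 1.08 and 1.63 ± 0.391 CPM (SD, n = 3). Its groups did not overlap, and its log2 fold change of -2.02 (95% interval -2.61 to -1.42, adjusted p = 0.000225 in edgeR) was the largest in size among the genes that fell. Ltf encodes lactoferrin, an iron-binding protein. It was at 96.7, 83.9 and 74.9 CPM in the sham and at 40.5, 38.7 and 44.5 CPM in the EV replicates, with no overlap. Its log2 fold change was -1.05 (95% interval -1.27 to -0.82, adjusted p = 2.59e-05 in edgeR).

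Ngp encodes neutrophilic granule protein, a cystatin-like relative of the cathelicidins. It was at 264, 220.1 and 289 CPM in the sham and at 255, 218 and 311 CPM in the EV replicates, so that the groups overlapped almost wholly. The log2 fold change was 0.021 (95% interval -0.27 to 0.31, adjusted p = 0.92 in edgeR), and the interval lies above those of Ltf, Camp and Lcn2. The sign of this value is not fixed, since it was -0.13 with scaling by library totals alone and -0.026 with upper-quartile scaling.

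**Figure D2:**
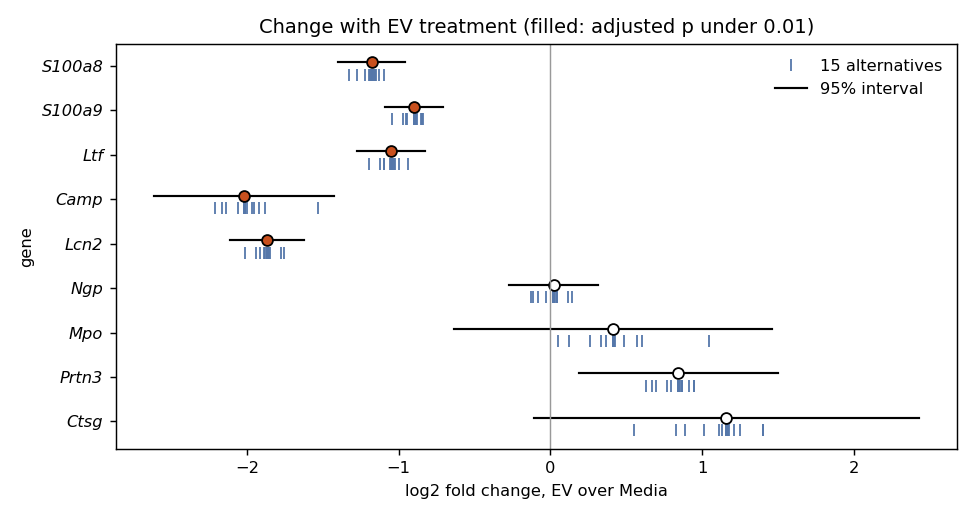
Log2 fold change of EV- over sham-treated cultures for the 9 genes (points, with 95% intervals as lines) and the values under 15 alternative analyses (ticks). Filled points are genes with an adjusted p under 0.01, and the intervals of these 5 genes lie wholly under 0 while those of Ngp, Mpo and Ctsg span 0.

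In sham-treated cultures the primary granule genes had the lowest mean CPM of the 9 genes. With EVs, Camp, at 1.63 CPM, lay under Mpo, at 3.97 CPM, and under Prtn3. Prtn3 encodes proteinase 3, a serine protease of neutrophil primary granules. It had 79, 38 and 59 counts in the sham and 127, 129 and 119 in the EV replicates, or 2.05 ± 0.465 and 3.68 ± 0.388 CPM (SD, n = 3). The EV-treated libraries all lay over the sham-treated ones, as they did for 24.8% of all genes tested. The log2 fold change was 0.84 (95% interval 0.19 to 1.499), and its adjusted p of 0.0476 in edgeR did not pass the threshold.

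Ctsg encodes cathepsin G, another serine protease of these granules. It had 24, 9 and 21 counts in the sham and 28, 72 and 47 in the EV replicates, which do not overlap either after scaling. Its log2 fold change of 1.16 had a 95% interval from -0.11 to 2.43 (adjusted p = 0.145 in edgeR). Mpo, which encodes myeloperoxidase, had 90, 130 and 30 counts in the sham and 111, 196 and 102 in the EV replicates. At 5.16 CPM, sham replicate 2 was above EV replicates 1 and 3, while sham replicate 3 was at 1.18 CPM. The log2 fold change was 0.41 (95% interval -0.63 to 1.46, adjusted p = 0.541 in edgeR). It was 1.04 without sham replicate 2 and 0.048 without sham replicate 3, neither of which passed. A rise of 2-fold lies inside the interval of Mpo.

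Levels can be compared between genes per kilobase of transcript, using the longest coding transcript of each gene. In sham-treated cultures Ngp had 211 ± 28.6, S100a9 196 ± 13.8 and S100a8 133 ± 6.28 CPM per kilobase (SD, n = 3). Lcn2 followed at 45.2 ± 5.57, Ltf at 31.1 ± 3.99 and Camp at 8.70 ± 1.43. The primary granule genes were lowest, with 2.00 ± 0.454 for Prtn3, 1.09 ± 0.733 for Mpo and 0.627 ± 0.243 for Ctsg. In this order the ranges over libraries overlapped between Ngp and S100a9, between Prtn3 and Mpo, and between Mpo and Ctsg. With EVs the order changed in 2 places, since Ltf, at 15.03 ± 1.08, lay over Lcn2, at 12.4 ± 0.294, and Prtn3, at 3.59 ± 0.378, lay over Camp, at 2.15 ± 0.515. On the same scale Prg2 had 24544 CPM per kilobase in sham-treated cultures and Epx, which encodes eosinophil peroxidase, had 1771. The most abundant of the 9 genes was thus far under either eosinophil granule gene.

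Together the 9 genes took between 0.0544% and 0.0620% of all counts in the sham-treated libraries and between 0.0341% and 0.0434% in the EV-treated libraries. Without Ngp, the other 8 genes took 0.0310% to 0.0337% and 0.0133% to 0.0143%. Ngp made up 45.0%, 43.0% and 49.0% of the counts of the 9 genes in sham replicates 1 to 3 and 63.4%, 61.0% and 67.1% in EV replicates 1 to 3. Per kilobase, the ratio of Ngp to Camp was 22.2, 19.3 and 33.5 in the sham and 76.4, 90.1 and 146 in the EV replicates. These ratios were chosen after their values had been seen and do not depend on the scaling between libraries, and neither the share of Ngp nor the ratio overlapped between groups.

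**Figure D3:**
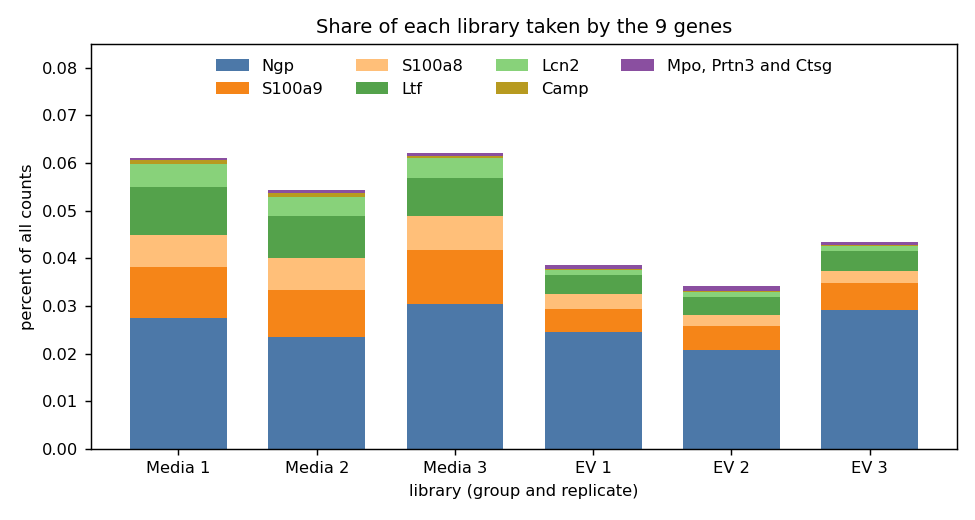
Percent of all counts taken by the 9 genes in each library, stacked by gene, with Mpo, Prtn3 and Ctsg summed. The segments of S100a9, S100a8, Ltf, Lcn2 and Camp are thinner in the 3 EV libraries, whereas the segment of Ngp is of similar height in both groups.

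A further list of neutrophil granule genes moved both ways, and it also holds genes whose proteins are not confined to granules. Of its 20 genes, 19 passed the filter, with 5 called higher and 7 called lower by edgeR and with a median log2 fold change of 0.11. For this list and those below, the shares over all genes tested were 12.1% higher and 11.6% lower. Lyz2, which encodes lysozyme, fell from 1929 ± 588 to 199 ± 44.6 CPM (SD, n = 3) with a log2 fold change of -3.28 and a standard error of 0.241. Slc11a1, a metal transporter of phagocyte granule membranes, fell by 2.40 on the log2 scale. Lyz2 and Slc11a1 are also expressed by macrophages. Mmp8, which encodes the collagenase of secondary granules, fell from 165 ± 22.7 to 51.4 ± 7.81 CPM, and Cd177, a surface protein of neutrophils held in the same granules, from 4.02 ± 1.44 to 1.13 ± 0.224 CPM. Pglyrp1, which encodes a peptidoglycan recognition protein of granules and was named after its value was seen, rose from 242 ± 25.2 to 686 ± 44.6 CPM (edgeR adjusted p = 7.54e-07). Mmp25, a membrane-bound metalloproteinase gene of neutrophils that was also named after its value was seen, rose by a log2 fold change of 1.70.

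Marker genes of neutrophil identity were also divided, and Mmp8 and Cd177 among them stand in the granule list above as well. Of 11 marker genes of neutrophil identity, 4 were higher and 4 were lower with EVs, and their summed level was 311 to 360 CPM in the sham- and 418 to 439 CPM in the EV-treated libraries. Ly6g, the antigen used to stain mouse neutrophils, rose from 18.1 ± 2.04 to 114 ± 4.44 CPM (SD, n = 3; log2 fold change 2.65, edgeR adjusted p = 4.16e-08). The chemokine receptor gene Cxcr2 rose by a log2 fold change of 1.87, the decoy receptor gene Il1r2 by 1.95 and Trem1, an activating receptor gene of myeloid cells, by 1.03. Csf3r, which encodes the receptor for granulocyte colony-stimulating factor, fell by 1.83 on the log2 scale and Fpr1, a receptor gene for formyl peptides, by 1.98. Mmp8 and Cd177, which are granule genes counted in both lists and are among the 4 lower genes here, fell as given above. Their log2 fold changes were -1.68 and -1.84. Retnlg, Stfa2l1 and Wfdc21 had log2 fold changes of -0.33, -1.36 and -0.71 and did not pass. The median log2 fold change of the list was -0.71, which is the value of Wfdc21, a gene at a mean of only 0.654 CPM in sham- and 0.401 CPM in EV-treated cultures. The summed level of the list was higher with EVs without overlap. The rise of the sum lay in Ly6g, Cxcr2, Il1r2 and Trem1, since every other gene of the list had a lower mean with EVs. The part of neutrophils in the fall of the granule genes was not tested.

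Of 11 genes for transcription factors of granule genes, 3 were higher and 3 were lower. Cebpa, the C/EBP factor of early granulocyte progenitors, fell from 128 ± 26.6 to 26.1 ± 1.62 CPM (SD, n = 3; log2 fold change -2.29, edgeR adjusted p = 1.49e-06). Irf8, which favors monocyte over granulocyte fate, fell by 3.15 on the log2 scale, and Runx1 rose by a log2 fold change of 1.07. Cebpe, the C/EBP factor required for secondary granules, and Cebpb and Cebpd of the same family were named after their values were seen. Cebpe had 422 ± 48.0 and 514 ± 39.0 CPM (log2 fold change 0.28, edgeR adjusted p = 0.0278), which did not pass. Cebpb rose from 274 ± 21.0 to 476 ± 16.4 CPM (log2 fold change 0.80, edgeR adjusted p = 9.77e-06). Cebpd fell from 29.1 ± 2.64 to 15.8 ± 1.55 CPM (log2 fold change -0.88, edgeR adjusted p = 0.00022).

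Genes of granule protease maturation and packing had 2 higher, 1 lower and 8 uncalled of 11, beside 12.1% higher and 11.6% lower over all genes tested. Srgn, which encodes serglycin, the proteoglycan that holds proteases in granules, rose from 341 ± 30.2 to 1066 ± 27.8 CPM (SD, n = 3). Furin, a proprotein convertase gene, rose by a log2 fold change of 1.15, and Ctsl, a lysosomal protease gene, fell by 2.07 on the log2 scale. Of 10 protease inhibitor genes tested, 4 were higher and 4 were lower. Among these, Cst7, which encodes an inhibitor of lysosomal cathepsins, rose by a log2 fold change of 2.03, whereas Serpinb9 fell by 2.29 and Wfdc17 by 1.66 on the log2 scale.

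Of 11 tested genes for receptors and partners of the granule proteins, 5 were lower and 2 were higher, with a median log2 fold change of -0.87. Tlr4, which encodes a receptor for calprotectin as well as for endotoxin, rose from 21.3 ± 6.10 to 103 ± 2.15 CPM (SD, n = 3; log2 fold change 2.28, edgeR adjusted p = 4.85e-06). Its level was thus higher in the group in which S100a8 and S100a9 were lower. Lrp1, an endocytic receptor gene whose protein binds lactoferrin among many ligands, fell from 906 ± 246 to 79.4 ± 14.0 CPM. Slc40a1, which encodes the iron exporter ferroportin, fell from 159.6 ± 8.41 to 27.2 ± 0.490 CPM.

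**Figure D4:**
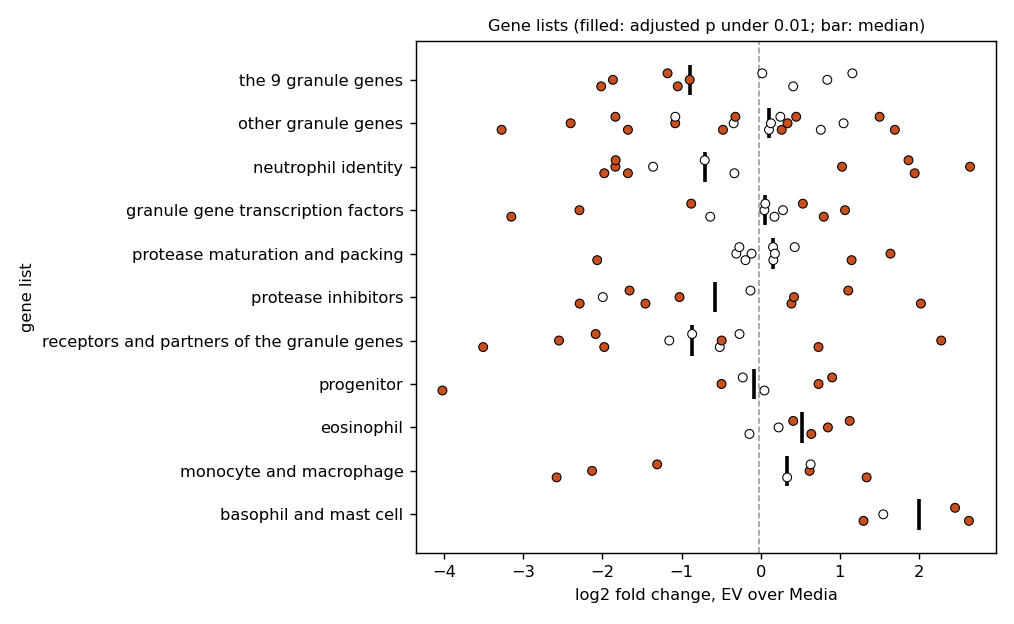
Log2 fold change of EV- over sham-treated cultures for each tested gene of the 9 granule genes and of 10 further lists (points, filled at an adjusted p under 0.01), with the median of each list as a bar and the median of all genes as a dashed line. The granule genes split into 5 filled points under 0 and 4 open points at or above it, and the neutrophil identity genes lie on both sides.

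Genes of granulocyte progenitors moved both ways. Ms4a3, a marker of granulocyte and monocyte progenitors, rose from 12.9 ± 2.15 to 24.1 ± 3.16 CPM (SD, n = 3), and Prss57, which encodes a serine protease of primary granules, from 22.4 ± 1.51 to 37.3 ± 2.06 CPM. Their log2 fold changes were 0.91 (adjusted p = 0.00104 in edgeR) and 0.73 (adjusted p = 0.000159). Sox4, a transcription factor gene of progenitors, fell by 4.02 on the log2 scale. Of 7 progenitor genes, 6 were tested, with 2 higher, 2 lower and 2 uncalled. Cd34, also called lower, had a log2 fold change of -0.49 (edgeR adjusted p = 0.000618) and was named after its value was seen.

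Markers of other cell types differed between the groups as well. Of 7 monocyte and macrophage genes, 2 were higher and 3 lower, with a summed level of 1577 to 1871 CPM in the sham- and 2177 to 2339 CPM in the EV-treated libraries. C1qa fell by 2.58 and Cd68 by 2.13 on the log2 scale, whereas Ly6c2 rose by 1.34. Ly6c2 had 354 and 896 CPM and Adgre1 691 and 1062 CPM in sham- and EV-treated cultures, whereas Csf1r fell from 464 to 187 CPM and Cd68 from 179 to 40.7 CPM. Adgre1 and Csf1r were named after their values were seen. Of 4 basophil and mast cell genes tested, 3 were higher, namely Ms4a2, Mcpt8 and Cpa3, with log2 fold changes of 2.64, 2.46 and 1.30, and the summed level of the list was 42.6 to 64.4 CPM in the sham- and 142 to 184 CPM in the EV-treated libraries. Of 6 eosinophil genes, 4 were higher, among them Ccr3 (log2 fold change 1.13), Siglecf (0.85) and Gata1 (0.64), with a median log2 fold change of 0.53. Calprotectin and lipocalin 2 are made by monocytes and macrophages too, and the part of these cells in the fall of S100a8, S100a9 and Lcn2 was not tested. Il4, a cytokine gene in the T cell list that eosinophils and basophils also express, was the 1 gene of that list with enough counts to be tested and rose by a log2 fold change of 0.93. The B cell genes Cd79a and Ms4a1 and the erythroid gene Klf1 were tested and did not pass (edgeR adjusted p of 0.912, 0.402 and 0.547).

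The genes whose pattern over the 6 libraries was most like that of each group of granule genes were sought among 10447 other genes with a mean normalized count over 100. For the mean log2 CPM of the secondary granule genes these were Bace1, Slc17a5 and Ank, with Pearson r of 0.9994, 0.9993 and 0.998. For calprotectin they were Rgs12, Thbs1 and Cul7, with r of 0.999, 0.998 and 0.997. For the primary granule genes they were Abhd13, Cep20 and Ceacam16, with r of 0.997, 0.996 and 0.993. These values are the highest of many over only 6 libraries in 2 groups, and describe likeness alone.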

How the data were processed

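RNA from 3 EV- and 3 sham-treated cultures was sequenced after poly(A) selection. The authors trimmed the reads with Cutadapt, quantified them with Salmon and deposited estimated counts per gene symbol. Strandedness, annotation and versions are not given in the sources used here. The deposited normalized counts and the authors' DESeq2 comparison (fold changes and p-values) were not used.

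Counts were rounded to whole numbers for edgeR 4.0.16 under R 4.3.3 (TMM, filterByExpr, quasi-likelihood test, Benjamini-Hochberg adjustment, call at an adjusted p under 0.01). Each standard error was the absolute log2 fold change over the root of its F statistic. CPM use TMM-scaled library sizes. On simulated counts for 13498 genes, edgeR called 140 of 200 changed genes and 2 unchanged ones, and 76 of the 81 genes changed 4-fold with a mean over 100. The test missed its pass requirement 3 times. Each time the requirement was lowered with the outcome known, while the fitting was left as it was, so meeting the final requirement is no independent check, and changed genes of low count or small fold can be missed. Shared 31-base words and transcript lengths came from GENCODE vM21, and promoter windows from RefSeq GRCm38.p6.

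Alternatives were other scalings, no filter, DESeq2 1.42.0, limma 3.58.1 on log2(CPM + 1), a replicate block, other thresholds and leaving out each library. The members and lists were chosen with earlier results of these data known. Named genes are the 10 granule genes chosen at the start, all neutrophil identity genes and the 3 called genes of each list with the largest change. The 3 genes most similar to each granule group are named too. Outside this rule, Prg2, Epx, Cd4 and the tested B cell and erythroid genes are given as cell type checks. Pglyrp1, Mmp25, Cebpe, Cebpb, Cebpd, Cd34, Adgre1 and Csf1r were named after their values were seen. Motifs, the motifs capitalised and ratios between granule genes were chosen after values had been seen.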

Additional observations from a re-analysis of the deposited data

How the results depend on the processing

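S100a8, S100a9, Ltf, Camp and Lcn2 kept their direction and an adjusted p under 0.01 in all 15 alternatives, apart from S100a9 where a log2 fold change of at least 1 in size was also required (its value is -0.90). Their adjusted p was at most 0.00231, for Camp, over the alternatives. With each library left out in turn, 5 of the 9 genes were lower in every fit. With an adjusted p under 0.05, 1 of the 9 genes, Prtn3, was higher. The log2 fold change of Ngp was -0.13 with library totals alone, -0.026 with upper-quartile scaling, -0.080 without sham replicate 2 and -0.12 without EV replicate 3, ranged up to 0.14 with 1 library left out, and never passed. Over all genes, library totals alone moved the median log2 fold change by -0.15 and gave 1036 higher and 2342 lower genes, against 1632 and 1572. At an adjusted p under 0.05, 2478 genes were lower. With a log2 fold change of at least 1 in size, 419 genes were higher and 857 lower, and 17 genes of the further lists were higher, against 32 without it. Leaving out a library gave 1071 to 1833 higher and 1018 to 1698 lower genes, with the fewest without EV replicate 3. With the replicate number as a block, 1794 genes were higher and 1781 lower, and the calls of the 9 granule genes were the same. Deviations of same-numbered libraries from their group means correlated at 0.117, 0.0846 and 0.0371 across genes, which are not independent replicates, and EV replicate 3 correlated best with another number, so the numbers were not taken as pairs. The number of libraries, 3 per group, limits all values.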
